A study of Rattus norvegicus with 18 samples.

Results

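Described here are 45 genes that fibroblasts of skeletal muscle use to build, modify and sense the extracellular matrix, followed in the rat extensor digitorum longus, a hindlimb muscle built mainly of fast fibres. Members were taken by name, as probe sets whose only gene symbol in the probe table is that of a member, with 1 probe set per gene chosen by the highest mean. Of the 45 genes, 42 were measured in this way and all 42 passed the filter on low values, among 12749 genes tested. Lama4, Lamb1 and Tgfbr2 were not analysed here, and Ctgf was found under its current symbol Ccn2.

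Every muscle fibre lies in a basement membrane of collagen IV, laminins and nidogens, and connective tissue sheets of collagen I and III surround the fibres and their bundles. Collagen VI links the basement membrane to these sheets, and small leucine-rich proteoglycans such as decorin bind the collagen fibrils. Fibroblasts make most of the fibrillar matrix, lysyl oxidases cross-link it, metalloproteinases cut it, tissue inhibitors of metalloproteinases (TIMPs) restrain the cutting, and transforming growth factor beta (TGF-beta) is the best known inducer of matrix synthesis.

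The muscles came from 18 adult F2 granddaughters, all Sprague-Dawley rats, with 1 array for each. The founding males had been kept on chow or on high-fat food. For 12 weeks the granddaughters themselves then received chow or food with 42/45% of its energy from fat. Group names give the grandfather's diet before the stroke and the female's own diet after it. There were 5 chow/chow and 5 chow/high-fat females, and the high-fat lineage gave 4 females on each own diet. No other treatment or genotype is given for any group. The labels do not say how many males founded each lineage, so relatives within a lineage count as independent animals here and the p-values for the grandpaternal diet may be too small. In a whole muscle, fewer cells of a type and less RNA per cell cannot be told apart.

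Values are log2(intensity + 16) after quantile normalization. The deposited median intensity of an array ran from 55.02 to 73.97. How many arrays there are sets the precision. Of 12 fast-fibre markers 9 were measured, with a summed intensity between 62511.7 and 68186.4 over all animals, while Myh4, Myh1 and Atp2a1 were not analysed here. The 8 slow-fibre markers had summed intensities from 3903.32 to 18605.3. A difference was called where the limma test, adjusted over all 12749 genes, passed 0.05. In total 7 comparisons were made, and no member was called in any of them.

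The opening comparison asks what 12 weeks of high-fat feeding went with in the muscle matrix, averaged over both lineages. Of the 42 measured members, 40 had a lower mean in high-fat-fed females, where 51.6% of all genes tested were lower. The median difference of the members was -0.13 on the log2 scale, against -0.003 for all genes. At an unadjusted p under 0.05 lay 14 members, all of them lower, where 3.43% of all genes were lower at that level. After adjustment 0 members were called by limma, against 0.0157% of all genes. The smallest p values belonged to Dcn, Timp2 and Col6a3. Col5a3 and Col4a2 were the 2 members with a higher mean, by 0.02 and 0.03.

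**Figure D1:**
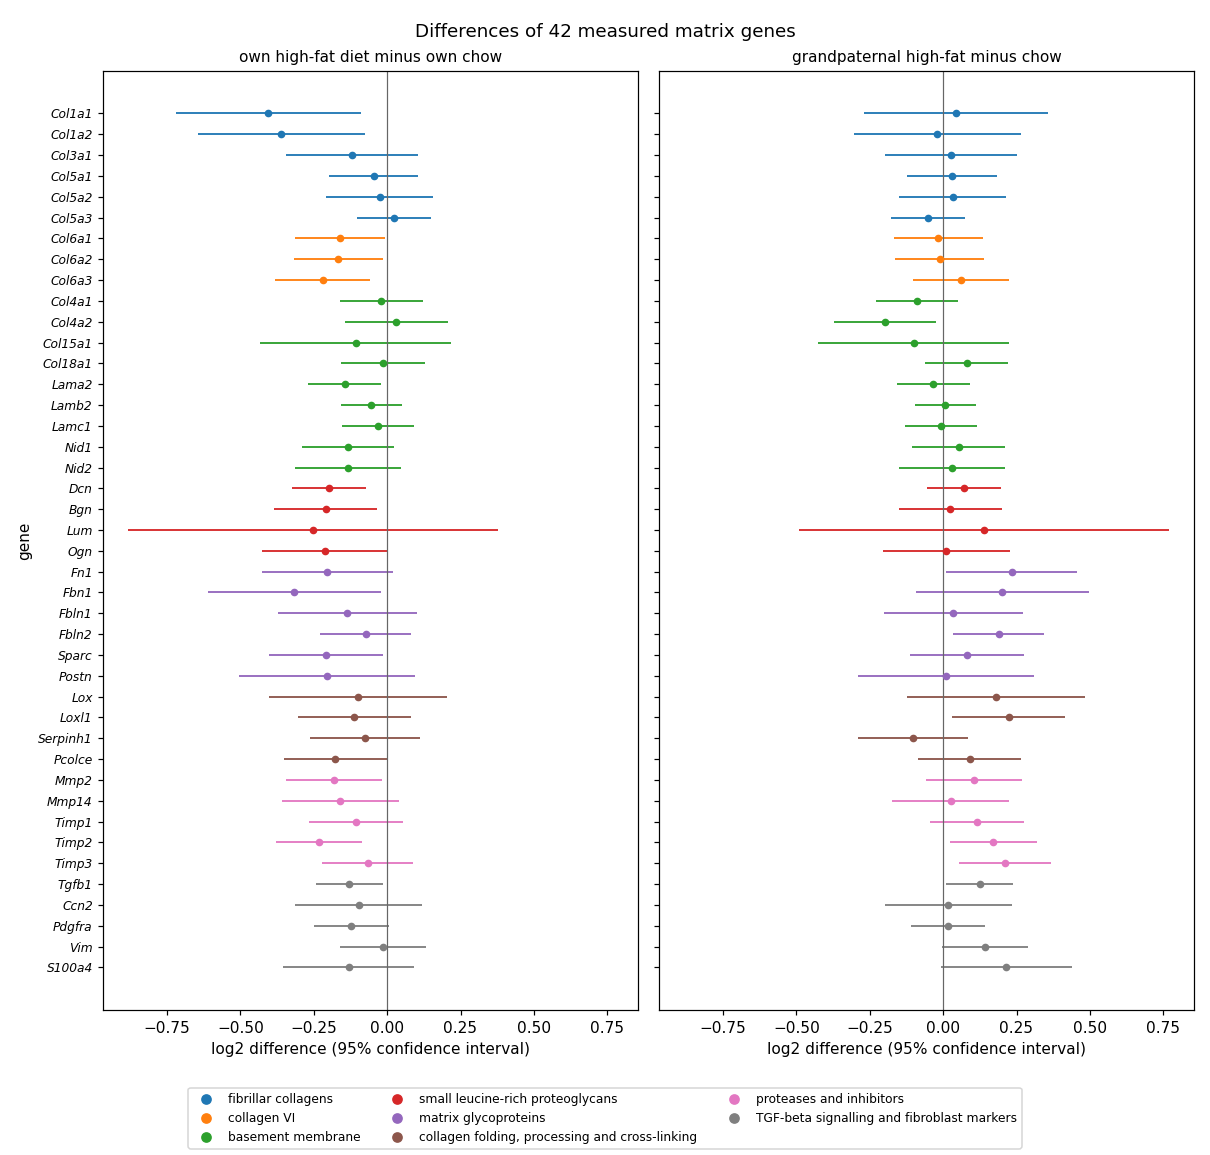
Log2 difference of each of the 42 measured genes, for the own diet averaged over both lineages (left) and for the grandpaternal diet averaged over both own diets (right), with 95% confidence intervals and colours by matrix class. On the left 40 points lie below 0, with Col1a1 at -0.40 farthest out; on the right 32 lie above 0, most of them close to it.

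Among the fibrillar collagens, which form the rope-like fibrils of connective tissue, 5 of 6 were lower with the own high-fat diet, with a median of -0.08. Col1a1, the alpha 1 chain of collagen I, had the largest difference of all members. Its log2 levels were 10.59, 10.15, 10.18, 10.39 and 10.94 in the chow/chow females and 10.56, 9.46, 9.97, 10.55 and 10.22 in the chow/high-fat females. They were 10.32, 10.87, 10.28 and 10.94 in the high-fat/chow and 10.14, 9.80, 9.995 and 10.42 in the high-fat/high-fat females. Both fed groups overlapped their chow-fed counterparts, and 7 of 9 high-fat-fed females lay below the mean of those counterparts. The difference was -0.40 (SE 0.15, 95% confidence interval -0.72 to -0.09, limma adjusted p = 0.654), a 1.32-fold lower level. Col1a2, whose chain joins that of Col1a1 in the same triple helix, differed by -0.36 (SE 0.14, limma adjusted p = 0.660).

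Col1a1 and Col1a2 went together from animal to animal. Over the 18 arrays their levels had a Pearson r of 0.971 and a Spearman rho of 0.953 (permutation p = 1e-05 for each, the smallest that 100000 resamples can give; adjusted over 6 pairs of chains, 6e-05 and 3e-05). Leaving out the 2 arrays farthest from the median left r at 0.949, and r was 0.968 in well column 5 and 0.943 in well column 7. The pairs were chosen after values had been seen. Chains measured on the same arrays also share any difference in tissue or RNA between the arrays. Part of the Col1a2 promoter is shown because this chain carries, with Col1a1, the largest own-diet difference of the module. It is RefSeq sequence of build GRCr8, chr4:33518307-33518406 on the plus strand, from 250 to 151 bases before the annotated start, with the capitals marking an inverted CCAAT box, a TATA box 170 bases before that start and an inverted SMAD motif.
Col1a2: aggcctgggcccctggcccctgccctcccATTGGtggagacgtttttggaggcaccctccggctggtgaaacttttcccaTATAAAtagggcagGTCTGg

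Col3a1, the chain of the finer collagen III fibrils, was less separated. It stood at 8.50, 8.49, 8.18, 8.60 and 8.73 in chow/chow and at 8.13, 8.16, 8.25, 8.93 and 8.79 in chow/high-fat females. In the high-fat lineage it stood at 8.38, 8.64, 8.56 and 8.81 on chow and at 8.35, 8.30, 8.35 and 8.63 on the high-fat diet. The groups overlapped in both lineages, with a difference of -0.12 (SE 0.11, limma adjusted p = 0.891). The collagen V chains, which set the width of fibrils, lay closest to 0 of this class, with Col5a1 at -0.05, Col5a2 at -0.03 and Col5a3 at 0.02.

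Collagen VI forms beaded filaments next to the basement membrane of muscle fibres, and all 3 of its measured chains were lower with the own high-fat diet, with a median of -0.17. Each of the 3 lay at an unadjusted p under 0.05. Col6a3 levels were 8.12, 8.04, 7.67, 8.18 and 8.29 in chow/chow and 7.89, 7.87, 7.72, 8.07 and 8.11 in chow/high-fat females. They were 8.19, 8.34, 8.11 and 8.22 in high-fat/chow and 7.96, 7.71, 7.87 and 8.07 in high-fat/high-fat females. In the chow lineage the groups overlapped, while in the high-fat lineage every chow-fed female lay above every high-fat-fed female. The mean difference was -0.22 (SE 0.078, limma adjusted p = 0.610).

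Col6a2 had the smallest p of all members within the high-fat lineage. Its levels there were 8.22, 8.63, 8.38 and 8.31 on chow and 8.09, 8.02, 8.02 and 8.15 on the high-fat diet, with no overlap. In the chow lineage they were 8.34, 8.18, 8.01, 8.24 and 8.47 on chow and 8.11, 8.01, 8.22, 8.31 and 8.49 on the high-fat diet, and the groups covered the same range. The difference was -0.32 (SE 0.11, limma adjusted p = 0.416) in the high-fat lineage and -0.02 in the chow lineage. The difference between these differences was -0.30 (SE 0.15, limma adjusted p = 0.718). Col6a1 and Col6a2, whose genes lie side by side, had r = 0.812 over the 18 arrays, and Col6a1 and Col6a3 had r = 0.826. Spearman's rho was 0.820 and 0.868 (for the former pair permutation p = 1e-04 for r and 8e-05 for rho, adjusted over 6 pairs 2e-04 and 0.000160; for the latter 5e-05 and 1e-05, adjusted 0.000150 and 3e-05). Their r without the 2 farthest arrays was 0.691 and 0.755, and within well columns 5 and 7 it lay between 0.734 and 0.865.

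The basement membrane genes showed smaller differences, with 8 of 9 measured members lower with the own high-fat diet and a median of -0.05. Lama2, the laminin chain of the muscle fibre membrane whose loss causes a congenital muscular dystrophy, was the member of this class at an unadjusted p under 0.05. It stood at 9.21, 9.27, 9.001, 8.94 and 9.14 in chow/chow, at 8.93, 9.11, 8.97, 8.98 and 9.20 in chow/high-fat, at 9.24, 9.25, 9.17 and 8.94 in high-fat/chow and at 9.002, 9.02, 8.85 and 8.87 in high-fat/high-fat females. The groups overlapped, and the difference was -0.14 (SE 0.060, limma adjusted p = 0.720). A further Lama2 probe set differed by -0.08 for the own diet. For the grandpaternal diet at own chow the Lama2 probe sets differed in sign, at 0.04 and -0.007.

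Nid1, a nidogen that ties the laminin network to collagen IV, stood at 9.37, 9.18, 9.07, 9.13 and 9.42 in chow/chow and at 9.19, 8.87, 8.94, 9.15 and 8.82 in chow/high-fat females. In the high-fat lineage its levels were 9.09, 9.52, 9.12 and 8.996 on chow and 9.13, 9.26, 9.02 and 9.20 on the high-fat diet. All 5 chow/high-fat females lay below the chow/chow mean, but the groups overlapped, and in the high-fat lineage the fed groups covered the same range. The differences were -0.24 (SE 0.10, limma adjusted p = 0.999) in the chow lineage and -0.02 in the high-fat lineage. Nid2, its relative, differed by -0.13 on average. Col15a1, a collagen of the outer basement membrane, differed by -0.11 and Lamb2, Lamc1 and Col18a1 by -0.05, -0.03 and -0.01.

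Col4a1 and Col4a2 encode the chains of the main collagen IV and start head to head, 77 bases apart. The 76 bases between their start sites are shown because these genes share them. They are RefSeq sequence of build GRCr8, chr16:84885521-84885596 on the plus strand, read towards Col4a1, with an inverted GC box in capitals.
Col4a1: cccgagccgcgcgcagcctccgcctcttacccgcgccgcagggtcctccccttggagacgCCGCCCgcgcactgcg

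Col4a1 levels were 7.88, 7.84, 7.65, 7.90 and 7.92 in chow/chow, 7.75, 7.66, 7.66, 8.10 and 7.83 in chow/high-fat, 7.79, 7.82, 7.76 and 7.55 in high-fat/chow and 7.89, 7.83, 7.60 and 7.60 in high-fat/high-fat females. All groups overlapped, with an own-diet difference of -0.02 (SE 0.067, limma adjusted p = 0.979). Over the 18 arrays Col4a1 and Col4a2 had a Pearson r of 0.500 (permutation p = 0.0340, adjusted 0.0408) and a rho of 0.360 (permutation p = 0.141, adjusted 0.170). Without the 2 farthest arrays r was 0.217, but it was 0.768 within well column 5 and 0.909 within well column 7. The size of the relation thus depended on which arrays were used. Lama2 and Lamc1, which belong to the same laminin trimers, had r = 0.211 and rho = 0.245 (permutation p = 0.395 and 0.326), and the collagen V chains Col5a1 and Col5a2 had r = 0.678 and rho = 0.632 (permutation p = 0.00198 and 0.00578, adjusted 0.00297 and 0.00867).

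All 4 small leucine-rich proteoglycans were lower with the own high-fat diet, with a median of -0.21. Dcn encodes decorin, which coats collagen I fibrils and binds TGF-beta. It was the member of smallest p in the average of both lineages and in the chow lineage. Its log2 levels were 12.05, 11.89, 11.79, 11.78 and 12.03 in chow/chow and 11.94, 11.55, 11.61, 11.65 and 11.56 in chow/high-fat females. They were 11.90, 12.06, 11.82 and 11.94 in high-fat/chow and 11.75, 11.75, 11.72 and 11.90 in high-fat/high-fat females. Of the high-fat-fed females 8 of 9 lay below the mean of their counterparts, and chow/high-fat female 1 stood apart from the other 4 of the group. The mean difference was -0.20 (SE 0.060, 95% confidence interval -0.32 to -0.07, limma adjusted p = 0.443), a 1.15-fold lower level. In the chow lineage alone it was -0.25 (SE 0.080, limma adjusted p = 0.970).

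Bgn, biglycan, differed by -0.21 (SE 0.083, limma adjusted p = 0.717) and Ogn, osteoglycin, by -0.21 (SE 0.10, limma adjusted p = 0.753). Lum, which encodes the fibril-spacing proteoglycan lumican, differed by -0.25 with a far larger error (SE 0.30, limma adjusted p = 0.926). It was the most variable member, with a pooled SD within groups of 0.74 and a range of 2.45 over all animals. It ran from 6.85 to 8.35 in chow/chow, from 6.10 to 8.10 in chow/high-fat, from 6.48 to 8.55 in high-fat/chow and from 6.91 to 7.51 in high-fat/high-fat females, so every group overlapped every other.

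**Figure D2:**
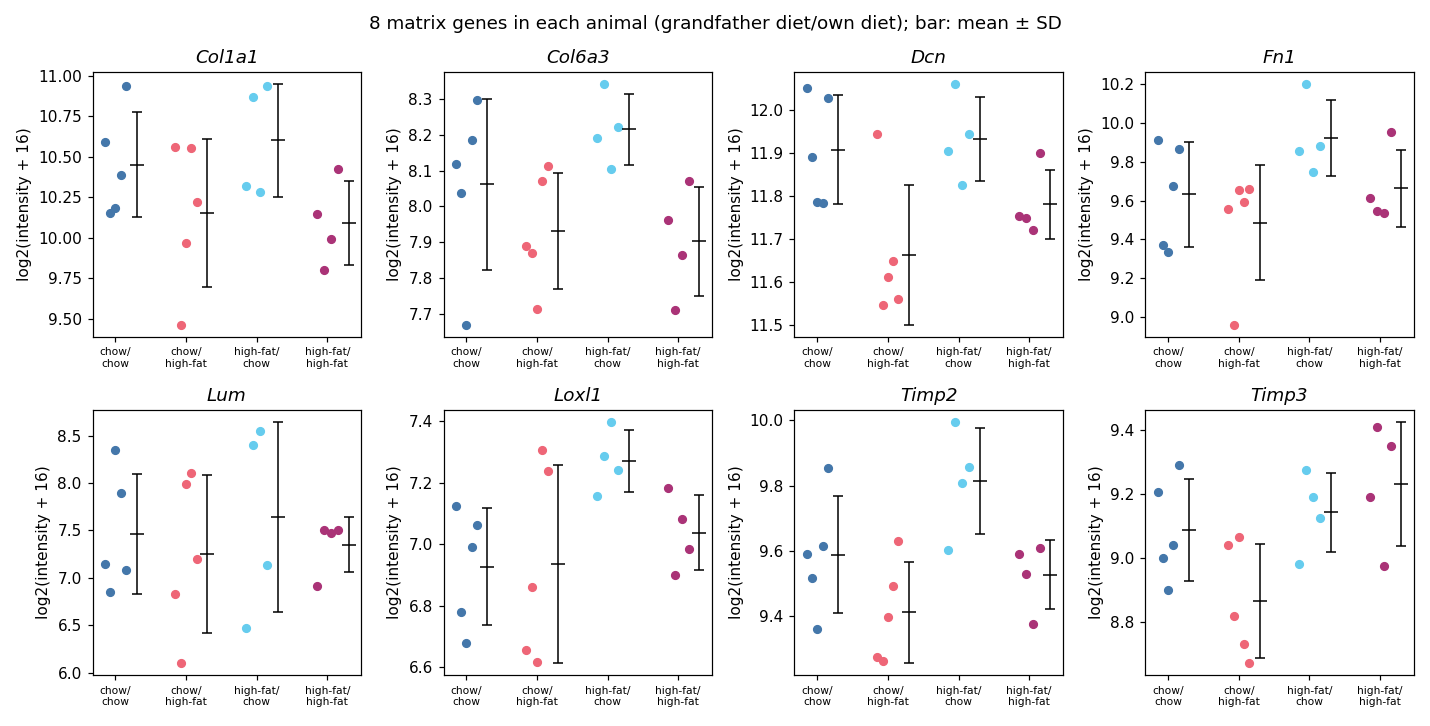
Log2(intensity + 16) of 8 members in each of the 18 females, by grandfather diet and own diet, with the mean ± SD of each group (n = 5, 5, 4 and 4). In 8 of 9 females on the high-fat diet Dcn lies below the chow-fed mean of their lineage, Lum spreads widely within groups, and all 4 high-fat/chow females lie above the chow/chow females for Loxl1.

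All 6 matrix glycoproteins were lower with the own high-fat diet, with a median of -0.20. Fbn1, the fibrillin of elastic microfibrils, differed by -0.32 (SE 0.14, limma adjusted p = 0.728) and ran between 7.86 in a chow/high-fat female and 9.26 in a high-fat/chow female. Sparc, a collagen-binding protein that fibroblasts need to assemble fibrils, differed by -0.21 (SE 0.093, limma adjusted p = 0.728). In the high-fat lineage Sparc stood at 11.03, 11.34, 11.01 and 11.17 on chow and at 10.82, 10.97, 10.76 and 10.82 on the high-fat diet, with no overlap.

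Fn1, fibronectin, on which other fibrils are laid down, stood at 9.92, 9.37, 9.34, 9.68 and 9.87 in chow/chow and at 9.56, 8.96, 9.65, 9.60 and 9.66 in chow/high-fat females. In the high-fat lineage it stood at 9.85, 10.20, 9.75 and 9.88 on chow and at 9.61, 9.55, 9.54 and 9.96 on the high-fat diet. The groups overlapped in both lineages, and the own-diet difference was -0.20 (SE 0.11, limma adjusted p = 0.794). Chow/high-fat female 2 was low for Fn1 and also for Col1a1, Lum and Fbn1. Postn, a matrix protein of remodelling tissue, Fbln1 and Fbln2, the fibulins, differed by -0.21, -0.14 and -0.07.

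The 4 genes that fold, process and cross-link collagen were all lower, with a median of -0.11. Pcolce, which speeds the removal of the collagen propeptide, differed by -0.18 (SE 0.084, limma adjusted p = 0.742). Serpinh1, the collagen chaperone of the endoplasmic reticulum, stood at 9.24, 9.06, 8.87, 9.37 and 9.08 in chow/chow, at 8.90, 9.07, 8.64, 9.37 and 9.01 in chow/high-fat, at 8.68, 9.26, 8.98 and 8.96 in high-fat/chow and at 8.99, 8.93, 8.92 and 8.93 in high-fat/high-fat females. It differed by -0.08 (SE 0.090), and the groups overlapped. Lox, lysyl oxidase, stood at 7.85, 7.21, 6.89, 6.96 and 7.73 in chow/chow, at 7.91, 6.98, 7.11, 7.31 and 7.11 in chow/high-fat, at 7.57, 7.90, 7.11 and 7.69 in high-fat/chow and at 7.34, 7.31, 7.43 and 7.57 in high-fat/high-fat females. Its SD was 0.44, 0.37, 0.33 and 0.11 in these groups, and it differed by -0.10 (SE 0.14).

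All 5 proteases and inhibitors were lower as well, with a median of -0.16, so that genes of matrix breakdown and genes of its restraint lay on the same side in this average. Within lineages Timp3 and Mmp14 did not keep 1 direction. Timp3 had means of 9.09 in chow/chow, 8.87 in chow/high-fat, 9.14 in high-fat/chow and 9.23 in high-fat/high-fat females. For Mmp14 they were 6.97, 6.99, 7.18 and 6.84 in the same order. Timp2, an inhibitor that also takes part in activating the gelatinase Mmp2, stood at 9.59, 9.52, 9.36, 9.62 and 9.85 in chow/chow, at 9.28, 9.26, 9.40, 9.49 and 9.63 in chow/high-fat, at 9.60, 9.99, 9.81 and 9.86 in high-fat/chow and at 9.59, 9.53, 9.38 and 9.61 in high-fat/high-fat females. In both lineages the groups overlapped, and 8 of 9 high-fat-fed females lay below the mean of their counterparts. The difference was -0.23 (SE 0.071, limma adjusted p = 0.455). Mmp2 stood at 9.07, 9.02, 8.86, 9.09 and 9.30 in chow/chow, at 8.93, 8.83, 8.67, 9.22 and 8.99 in chow/high-fat, at 8.97, 9.48, 9.13 and 9.30 in high-fat/chow and at 8.97, 9.04, 8.88 and 9.07 in high-fat/high-fat females. The groups overlapped, and the difference was -0.18 (SE 0.078, limma adjusted p = 0.720). Mmp14, the membrane protease that activates Mmp2, differed by -0.16. Timp1 stood at 6.82, 6.59, 6.33, 6.83 and 6.56 in chow/chow, at 6.76, 6.68, 6.54, 6.36 and 6.50 in chow/high-fat, at 6.47, 6.88, 6.86 and 6.95 in high-fat/chow and at 6.62, 6.67, 6.59 and 6.66 in high-fat/high-fat females. It differed by -0.11 (SE 0.077), within the range of the chow-fed groups.

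TGF-beta signalling and fibroblast markers came last, with 5 of 5 measured members lower and a median of -0.12. Tgfb1, the ligand, stood at 7.35, 7.08, 7.10, 7.26 and 7.28 in chow/chow and at 7.09, 7.18, 6.91, 7.10 and 6.93 in chow/high-fat females. In the high-fat lineage it stood at 7.22, 7.27, 7.31 and 7.38 on chow and at 7.16, 7.24, 7.08 and 7.36 on the high-fat diet. The fed groups overlapped in both lineages, with a difference of -0.13 (SE 0.054, limma adjusted p = 0.720). Ccn2, a target of TGF-beta also called connective tissue growth factor, differed by -0.27 in the chow lineage and 0.07 in the high-fat lineage. Pdgfra, the receptor that marks muscle fibroblasts and fibro-adipogenic progenitors, stood at 7.72, 7.55, 7.40, 7.58 and 7.71 in chow/chow, at 7.37, 7.38, 7.29, 7.53 and 7.52 in chow/high-fat, at 7.34, 7.71, 7.68 and 7.50 in high-fat/chow and at 7.46, 7.58, 7.37 and 7.54 in high-fat/high-fat females. It differed by -0.12 (SE 0.061, limma adjusted p = 0.758), with overlap. S100a4 differed by -0.13 and Vim, the intermediate filament of mesenchymal cells, by -0.01.

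**Figure D3:**
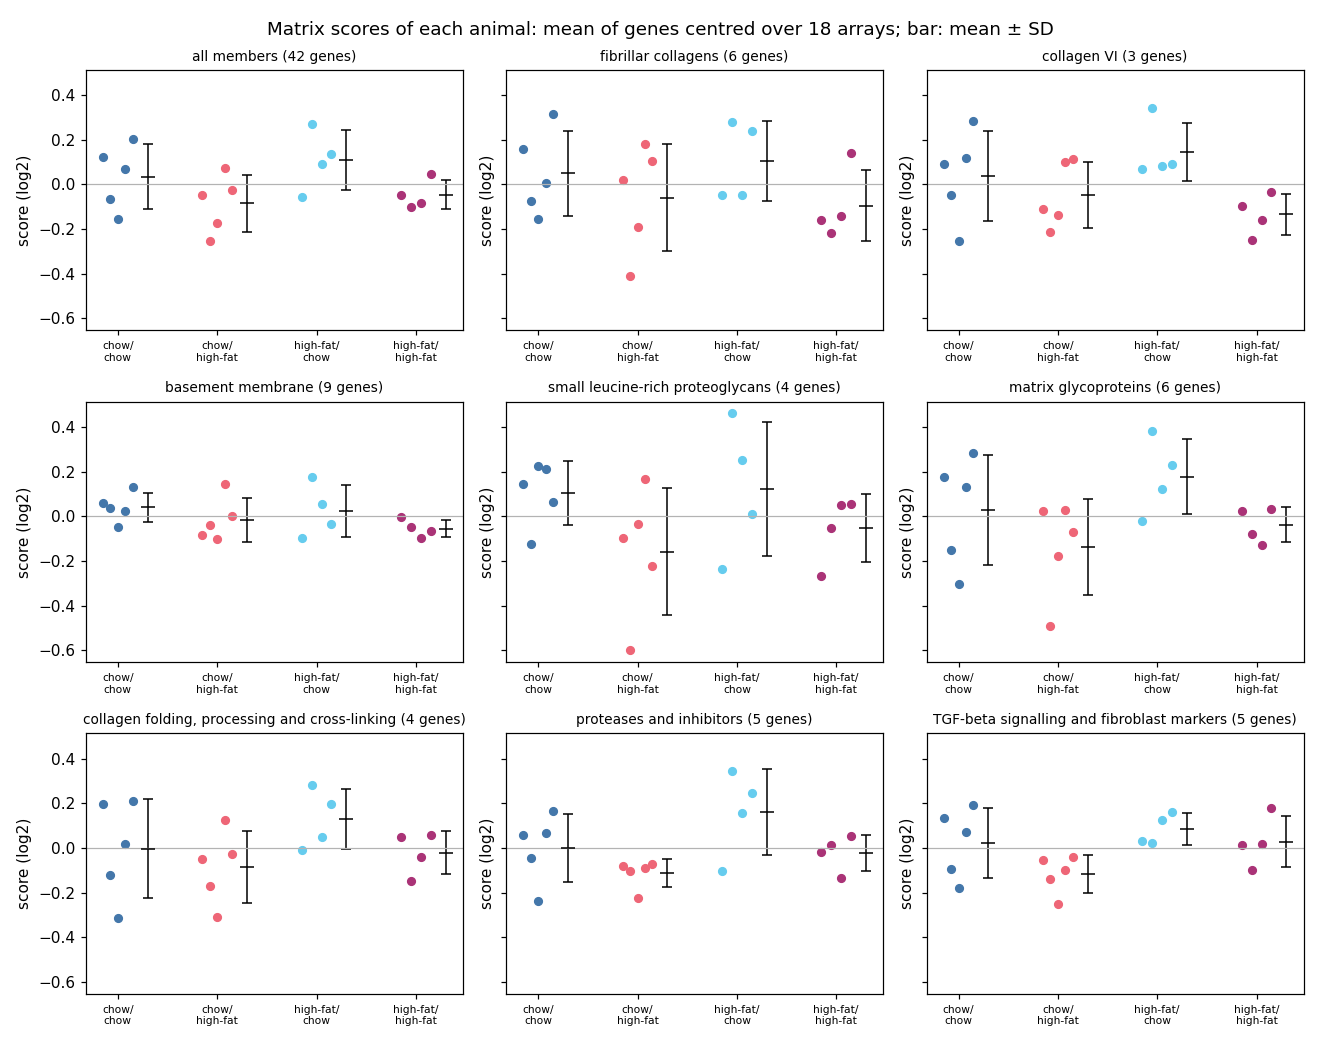
Score of each female for all 42 members and for each of the 8 matrix classes, in log2 units, as the mean of its genes after each gene was centred over the 18 arrays, with the mean ± SD of each group (n = 5, 5, 4 and 4). For all members 8 of 9 females on the high-fat diet lie below the chow-fed mean of their lineage, and for collagen VI the fed groups of the high-fat lineage do not overlap.

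The score of all members, the mean of its genes after centring, was 0.12, -0.07, -0.15, 0.07 and 0.20 in the chow/chow females and -0.05, -0.25, -0.17, 0.07 and -0.02 in the chow/high-fat females. It was -0.06, 0.27, 0.09 and 0.13 in the high-fat/chow females and -0.05, -0.10, -0.08 and 0.05 in the high-fat/high-fat females. The groups overlapped in both lineages, and 8 of 9 high-fat-fed females lay below the mean of their chow-fed counterparts.

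The titles end in a code that the labels do not explain. It was read here as a plate well, and its column was used as a possible batch. Some codes recur between animals, so a column may span several plates. Within well column 5, with 5 chow-fed and 3 high-fat-fed females, the median own-diet difference of the members was -0.17 and 37 of 42 were lower. In well column 7, with 2 chow-fed and 4 high-fat-fed females, it was 0.05 and 13 of 42 were lower. In well column 9, with high-fat lineage females only for this comparison, 1 against 2, it was -0.20 and 33 were lower. The pooled direction thus did not hold in well column 7. With the well column as a block, 38 of 42 members were lower with a median of -0.10, and 7 rather than 14 lay at an unadjusted p under 0.05. For Dcn and Col1a1 the difference was below 0 within each of the 3 columns. Dcn differed by -0.17, -0.11 and -0.19 and Col1a1 by -0.20, -0.10 and -0.96 in columns 5, 7 and 9. Timp2 and Col6a3, next to Dcn in order of p, turned above 0 in column 7, with differences of -0.36, 0.04 and -0.29 for Timp2 and -0.24, 0.06 and -0.38 for Col6a3 in the same columns. Timp3 differed by -0.23, 0.16 and 0.17. Pairing the females of a lineage by neighbouring animal numbers gave 8 pairs, and the median of the members was lower in the high-fat-fed female of 7 of them, between -0.34 and 0.02.

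Some lists of markers of other cells lay lower beside the matrix genes, and others lay higher. Of all genes tested 51.6% were lower with the own high-fat diet. Of 11 measured tendon markers 11 had a lower mean in high-fat-fed females, with a median of -0.22, as Chad (-0.57, SE 0.20) and Col14a1 (-0.32, SE 0.096). Tnmd differed by -0.22 (SE 0.17), Scx by -0.16 (SE 0.10) and Mkx by -0.02 (SE 0.10). The summed intensity of the 11 tendon markers ran from 3494.97 to 5136.34 in chow/chow and from 2030.3 to 5742.49 in chow/high-fat females. It ran from 3510.61 to 5537.39 in high-fat/chow and from 3319.02 to 4418.53 in high-fat/high-fat females. Of 17 leukocyte markers 15 were lower, with a median of -0.17, as Cybb (-0.28, SE 0.098) and Cd68 (-0.20, SE 0.075), while Ptprc differed by -0.03. Their summed intensity ran from 2128.58 to 3019.41, 1892.98 to 2638.86, 2584.41 to 2978.87 and 2227 to 2548.84 in the same order of groups. Of 9 endothelial markers 8 were lower with a median of -0.04, and all 9 fast-fibre markers were lower with a median of -0.03. Of 9 fat-cell markers 7 were higher with a median of 0.04, led by Cidea (0.43, SE 0.15), Lipe (0.40, SE 0.11) and Pnpla2 (0.21, SE 0.060). Adipoq differed by 0.03 (SE 0.19), Plin1 by 0.06, Retn by 0.04 and Fabp4 by 0.02. Cfd and Cidec were lower, at -0.12 and -0.07. All 8 slow-fibre markers were higher with a median of 0.13 and SEs between 0.25 and 0.35. The lineages differed in direction, with a mean slow-fibre score of 0.38 in chow/chow and 0.07 in chow/high-fat females. It was -0.56 in high-fat/chow and -0.0004 in high-fat/high-fat females. Also higher in the average were 3 of 4 red blood cell markers (median 0.20), 5 of 8 nerve and Schwann cell markers (median 0.03) and 4 of 7 vessel wall markers (median 0.005). No defining marker of tendon or leukocytes in these lists was called, and the part of tendon tissue, leukocytes or dissection in the matrix differences was not tested.

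The own-diet comparison was then made within each lineage, to ask whether the grandfather's diet went with a different matrix response. In the chow lineage 36 of 42 members were lower, with a median of -0.12, where 51.4% of all genes tested were lower. Called were 0 members and 0% of all genes, with 7 members and 4.79% of all genes at an unadjusted p under 0.05. Dcn, Tgfb1 (-0.18, SE 0.072) and Nid1 had the smallest p. The count of 7 rests on single females. It was 1 without chow/chow female 1, 2 without chow/chow female 5, 2 without chow/high-fat female 2, 3 without chow/high-fat female 3, 4 without chow/chow female 4, 4 without chow/high-fat female 5 and 12 without chow/chow female 3. With the well column as a block it was 1, with 31 members lower and a median of -0.06. The median was -0.07 without chow/chow female 5.

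In the high-fat lineage 37 of 42 members were lower, with a median of -0.15, where 50.4% of all genes were lower. Called by limma were 0 members and 0% of all genes, with 8 members and 9.21% of all genes at an unadjusted p under 0.05. That count was 3 without high-fat/chow female 2 (29 members lower), 4 without high-fat/chow female 4, 4 without high-fat/high-fat female 2 and 4 without high-fat/high-fat female 3, and 3 with arrays centred on their medians. Over the 13 settings other than leaving out single arrays, it ran from 0 to 11. In these settings 23 to 38 members were lower, with medians from -0.17 to -0.04. Col6a2, Timp2 (-0.29, SE 0.11, limma adjusted p = 0.442) and Col6a3 (-0.31, SE 0.12, limma adjusted p = 0.453) had the smallest p. Col6a1, Col6a2, Col6a3 and Sparc did not overlap between the fed groups of this lineage, which is 4 of 42 members, where 2.05% of all genes were lower without overlap. For Col6a1 the levels were 8.57, 8.82, 8.53 and 8.52 on chow and 8.44, 8.30, 8.42 and 8.45 on the high-fat diet. In both lineages 32 of 42 members were lower, where 24.8% of all genes were lower in both. The lineages share no animals, but the members were chosen with earlier results of these data known. Several of them also go together from animal to animal, so the 32 are not independent observations.

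**Figure D4:**
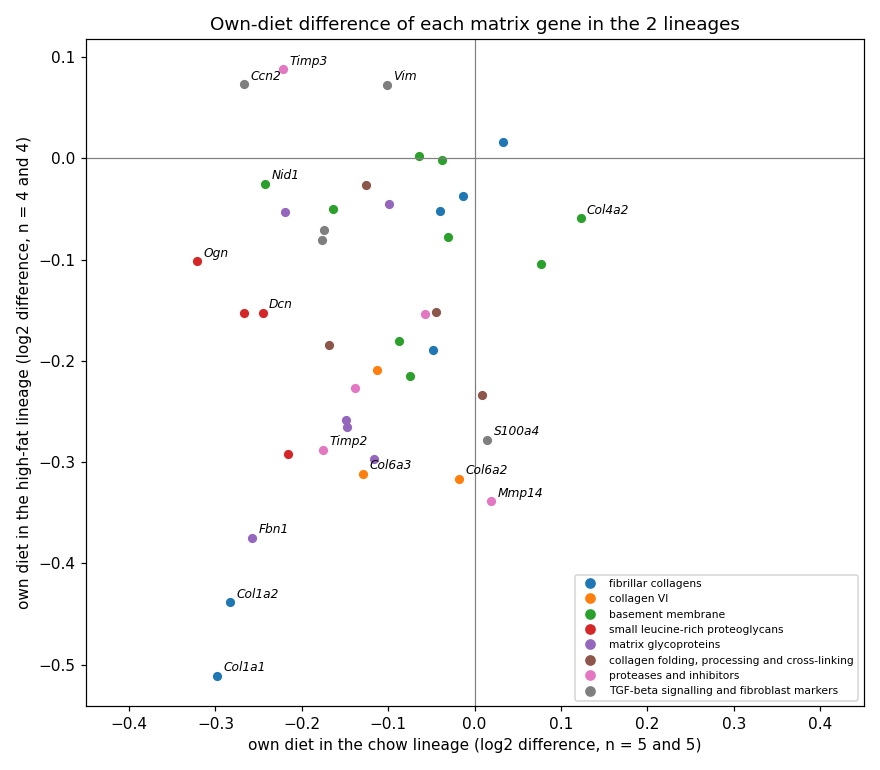
Own-diet log2 difference of each of the 42 measured genes in the chow lineage (x axis, n = 5 and 5) and in the high-fat lineage (y axis, n = 4 and 4), coloured by matrix class. Below 0 on both axes lie 32 genes, with Col1a1 and Col1a2 farthest out; Timp3, Ccn2 and Vim lie above 0 in the high-fat lineage and S100a4, Mmp14 and Col4a2 are among those to the right of 0 in the chow lineage.

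The difference between the lineages in their own-diet response was tested as the interaction. It was below 0 for 27 of 42 members, where 48.9% of all genes lay below 0, and its median was -0.08. Called were 0 members and 0% of all genes, with 0 members and 6.79% of all genes at an unadjusted p under 0.05. With an array left out, up to 3 members lay at that level (without chow/high-fat female 1 or high-fat/chow female 2). In the other settings 0 to 11 members lay there, and 2 to 27 members were below 0. The members of smallest p were Timp3 (0.31, SE 0.15), Col6a2 and Mmp14 (-0.36, SE 0.19). The adjusted limma p was 0.718, 0.718 and 0.742. The median turned to 0.0005 without high-fat/chow female 2 and to 0.04 without the 2 arrays of lowest deposited median.

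The grandpaternal diet was compared next, to ask what founders' high-fat feeding went with in granddaughters, averaged over both own diets. Of 42 members 32 had a higher mean in the high-fat lineage, where 48.8% of all genes tested were higher, but the median was 0.03 on the log2 scale. Called were 0 members, against 0.196% of all genes. At an unadjusted p under 0.05 lay 6 members that were higher, against 7.74% of all genes, and Col4a2 that was lower. These 7 became 2 with the well column as a block, where 24 of 42 members were higher. They became 3 without chow/chow female 3 (25 higher), 3 without high-fat/high-fat female 4, 4 without high-fat/chow female 3 and 4 without high-fat/chow female 4. Within well columns 5, 7 and 9 the median of the members was 0.01, 0.17 and -0.07, the last with 1 animal against 1.

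Timp3, the TIMP that stays bound to the matrix, had the smallest p, before Fbln2 and Loxl1 (0.22, SE 0.092, limma adjusted p = 0.265). Its levels were 9.21, 9.002, 8.90, 9.04 and 9.29 in chow/chow, 9.04, 8.82, 9.07, 8.73 and 8.67 in chow/high-fat, 8.98, 9.27, 9.19 and 9.13 in high-fat/chow and 9.19, 9.41, 8.97 and 9.35 in high-fat/high-fat females. On chow the lineages overlapped, and on the high-fat diet 2 of the 5 chow-lineage females reached the lowest female of the high-fat lineage. The mean difference was 0.21 (SE 0.075, limma adjusted p = 0.196), and within well columns 5, 7 and 9 it was 0.12, 0.29 and -0.17. On the own high-fat diet it was 0.37 (SE 0.11, 95% confidence interval 0.14 to 0.59, limma adjusted p = 0.148), a 1.29-fold higher level, and on own chow 0.06.

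The bases before the Timp3 start are shown because this gene had the smallest p of all members for the grandpaternal diet. They are RefSeq sequence of build GRCr8, chr7:19459559-19459808 on the minus strand, read towards the start, with 3 GC boxes and an inverted CCAAT box in capitals.
Timp3: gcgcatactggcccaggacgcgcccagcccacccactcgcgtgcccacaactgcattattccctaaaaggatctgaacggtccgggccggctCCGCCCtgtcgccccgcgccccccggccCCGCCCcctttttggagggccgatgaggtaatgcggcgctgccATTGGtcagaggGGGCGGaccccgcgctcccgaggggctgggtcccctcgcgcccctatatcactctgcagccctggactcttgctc

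Fbln2, a fibulin that links fibronectin and elastic fibres, differed by 0.19 (SE 0.074, limma adjusted p = 0.242), and all 8 high-fat lineage females lay above the mean of their chow-lineage counterparts. Fn1 differed by 0.23 (SE 0.11, limma adjusted p = 0.314) and Tgfb1 by 0.12 (SE 0.054, limma adjusted p = 0.298), also with 8 of 8 above. Timp2 differed by 0.17 (SE 0.071, limma adjusted p = 0.265). Col4a2 lay on the other side (-0.20, SE 0.083, limma adjusted p = 0.276), while its further probe set differed by -0.04. By class, all 6 glycoproteins, all 5 proteases and inhibitors, all 4 proteoglycans and all 5 signalling and fibroblast genes had a higher mean, with medians of 0.14, 0.12, 0.05 and 0.12. Collagen VI and the basement membrane had medians of -0.01 and -0.008, and the fibrillar collagens 0.03. Of the 4 genes that fold, process and cross-link collagen 3 were higher, with a median of 0.14. The tendon and leukocyte markers also lay higher in the high-fat lineage. The mean tendon score was 0.10 in chow/chow, 0.16 in high-fat/chow, -0.23 in chow/high-fat and -0.01 in high-fat/high-fat females. For leukocytes it was 0.05, 0.11, -0.10 and -0.06 in the same order. Their part in the matrix differences was not tested.

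On own chow, 30 of 42 members were higher in the high-fat lineage with a median of 0.06, where 49.5% of all genes were higher. Of the members 0 were called by limma, against 0.00784% of all genes, with 3 members and 8.72% of all genes at an unadjusted p under 0.05. With an array left out that count lay between 1 (without chow/chow female 2, chow/chow female 3 or high-fat/chow female 4) and 6 (without chow/chow female 1), and it was 5 without chow/chow female 5 or high-fat/chow female 1. Loxl1, a lysyl oxidase relative that cross-links elastic fibres, had the smallest p. Its levels were 7.12, 6.78, 6.68, 6.99 and 7.06 in chow/chow and 7.16, 7.29, 7.40 and 7.24 in high-fat/chow females. The lineages did not overlap, as for 1 of 42 members, where 1.53% of all genes were higher without overlap. The difference was 0.34 (SE 0.13, limma adjusted p = 0.480). In females on the high-fat diet, Loxl1 stood at 6.65, 6.86, 6.62, 7.31 and 7.24 in the chow lineage and at 7.18, 6.90, 7.08 and 6.99 in the high-fat lineage, and the difference was 0.10, with the lineages overlapping. S100a4, a calcium-binding protein found in fibroblasts and leukocytes, differed on own chow by 0.36 (SE 0.15, limma adjusted p = 0.533).

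On the own high-fat diet 24 of 42 members were higher with a median of 0.04, where 50.3% of all genes were higher. Called by limma were 0 members and 0% of all genes, with 4 members and 13.2% of all genes at an unadjusted p under 0.05. That count was 1 without high-fat/high-fat female 4 (21 members higher), 2 without chow/high-fat female 5, 2 without the 2 arrays of lowest deposited median and 1 with the well column as a block. After Timp3 the smallest p belonged to Col4a2 (-0.29, SE 0.12, limma adjusted p = 0.288) and Vim (0.23, SE 0.099, limma adjusted p = 0.322). The median was -0.0005 without chow/high-fat female 3. In the table as deposited, with no normalization between arrays, 7 members were called here, but so were 1680 genes in all and the median of all genes was itself 0.18.

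Beyond the members, 110 of 131 other genes of matrix structure, enzymes and signalling were measured, and 0 of them were called by limma in either average. With the own high-fat diet 78 of 110 were lower, with a median of -0.04, where 51.6% of all genes tested were lower. Dpt, dermatopontin, a decorin-binding matrix protein, had the smallest p (-0.31, SE 0.073, limma adjusted p = 0.216). It was followed by Loxl3, another lysyl oxidase relative (-0.23, SE 0.061), and Ddr2, a receptor for fibrillar collagen (-0.23, SE 0.062). By list, 16 of 20 other proteoglycans and glycoproteins, 14 of 16 other collagen enzymes and 13 of 15 other fibroblast markers were lower, while 9 of 19 other TGF-beta pathway genes were. For the grandpaternal diet 43 of 110 were lower and all the others were higher, where 48.8% of all genes tested were higher. P4ha2, a prolyl hydroxylase that stabilises collagen, had the smallest p (-0.22, SE 0.049, limma adjusted p = 0.0622), before Mmp19, a metalloproteinase (0.21, SE 0.063), and Lamc3, a laminin chain (0.19, SE 0.061).

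The members varied more between animals of a group than genes did in general. Their median SD within groups was 0.190, against 0.136 for all genes tested. After Lum, the most variable were Col15a1 (0.38), Col1a1 (0.36), Lox (0.35) and Postn (0.34), and the steadiest were Lamb2 (0.094) and Tgfb1 (0.108). Of the 42 measured members 30 had a promoter entry in RefSeq (build GRCr8), and the 250 bases before each start were searched on both strands. The TATA box TATAAA was found in 6 of 30, against 12.9% of all 33469 promoters, and the GC box GGGCGG in 16, or 53.3%, against 30.5%. The CCAAT box was found in 10, or 33.3%, against 34.0%, and the SMAD motif CAGAC in 14, or 46.7%, against 42.9%. None of these motifs contains another, and a match describes letters in the window and no more.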

How the data were processed

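RNA of 18 muscles was hybridized to Affymetrix arrays, 200 ng each, per the labels' protocols. The deposited table holds an intensity per probe set on a linear scale, made with Affymetrix Expression Console and PLIER per the submitters' processing notes; versions and settings are not given in the sources used here. Of 20917 probe sets 18197 had 1 symbol in the probe table, 960 several and 1760 none; 18052 were matched to RefSeq, which changed 0 symbols. The deposited array medians spanned 0.427 log2, so the deposited intensities were turned into log2(intensity + 16) and quantile-normalized (limma 3.58.1, R 4.3.3). Values at this offset understate changes of dim genes.

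Genes with a mean above the 25th percentile of probe sets (5.26 log2) were kept, 12749 in all. All arrays entered a model of the 4 group means (lmFit, eBayes), two-sided, with Benjamini-Hochberg adjustment within each of 7 comparisons at 0.05. The model was also run on simulated data, only for the comparisons made within a lineage or within an own diet. That simulation gave each gene independent noise and held no relation between genes, well columns or relatives. Lists are described by counts and medians only. Members and lists were chosen with earlier results of these data known. By rule, every animal's value is given for Col1a1, Col3a1, Col6a3, Col4a1, Lama2, Nid1, Dcn, Fn1, Lox, Serpinh1, Mmp2, Timp1, Tgfb1, Pdgfra and the member of smallest p in each comparison. The 3 members of smallest p are named in each comparison except the grandpaternal diet on own chow, where Loxl1 and S100a4 are named. Other genes are named as the extremes of a class, the list genes of smallest p, defining markers or, as the values of Timp2, Sparc, Col6a1 and Lum, after their values were seen.

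Alternatives were the table as deposited, arrays centred on their medians, an offset of 1 or 64, a filter at the 50th percentile or none, the mean of all probe sets of a gene, trended robust eBayes, array weights, only the groups compared, the well column as a block, neighbouring animal numbers as a random block, leaving out the 2 arrays of lowest median, and leaving out each array. Replicates are numbered in record order. Nothing says that arrays of a group share tissue, and over 32 pairs the smallest SD of a difference was 0.187, with at most 0.0908% identical values. Correlations used 100000 permutations.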

Additional observations from a re-analysis of the deposited data

Results flagged for a closer look

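Of 168 combinations of a member and a group, 9 held an animal that stood far from the others by Dixon's criterion, and of 36 combinations of a class score and a group, 2 did. Chance marks about 1 in 20 such groups, and 0 differences between lineages passed their test.

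Col3a1 was high in high-fat/high-fat female 4, at 8.63 against at most 8.35 in the others, and Serpinh1 was high in high-fat/high-fat female 1, at 8.99 against at most 8.93. Lum was low in that same female, at 6.91 against at least 7.47. In high-fat/chow female 1, Col15a1 was low at 6.66 and Nid2 at 6.77, against at least 7.97 and 7.29 in the others, while Fbln2 was high at 8.73. High-fat/chow female 2 had the highest collagen VI score, 0.34 against at most 0.09. Col4a1 was low in chow/chow female 3, at 7.65. Dcn was high in chow/high-fat female 1, at 11.94 against at most 11.65, and Fn1 was low in chow/high-fat female 2, at 8.96 against at least 9.56. The score of proteases and inhibitors was lowest in chow/high-fat female 3, at -0.22.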

How the results depend on the processing

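The median own-diet difference of the members, averaged over lineages, stayed below 0 in every setting run, from -0.16 to -0.11 when each array was left out and from -0.16 to -0.10 otherwise. The number of members at an unadjusted p under 0.05 ran from 7 to 19 with an array left out. It was 8 without chow/chow female 1, 8 without chow/chow female 5, 8 without chow/high-fat female 2, 9 without chow/high-fat female 3, 7 without high-fat/chow female 2 and 8 without high-fat/high-fat female 3. With an array left out, the medians ran from -0.17 to -0.07 and from -0.20 to -0.12 for the own diet within the chow lineage and within the high-fat lineage, and from 0.01 to 0.08, 0.02 to 0.13 and -0.0005 to 0.08 for the grandpaternal diet on average, on own chow and on own high-fat diet. The interaction ran from -0.11 to 0.0005. No member was called in any of these.

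In the table as deposited the medians were -0.27 for the own diet in the chow lineage, 0.24 for the grandpaternal diet at own high-fat diet and 0.20 for the interaction, where all genes shifted by -0.13, 0.18 and 0.24; relative to those shifts they were -0.14, 0.06 and -0.03. There 7 members were called for the grandpaternal diet at own high-fat diet: Vim, Fn1, Timp2, Nid1, Timp3, Fbln2 and Tgfb1. Without the 2 arrays of lowest median the interaction had a median of 0.044.

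The titles carry no replicate numbers shared between groups, so none was used as a block. Neighbouring animal numbers as a random block (consensus correlation 0.125) left 40 members lower and 0 called. With the mean of all probe sets of a gene, 40 members were lower and 0 called, 13 of them at an unadjusted p under 0.05. With 4 or 5 arrays a group and pooled SDs near 0.190, differences of the sizes reported mostly cannot be told from the spread between animals.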

Other observations

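The miR-29 family is known to repress collagen and other matrix transcripts, and the probe set of Mir29c (10766882) was looked up after values were seen. The mature miRNA is shown from RefSeq, build GRCr8, chr13:109099412-109099433 on the plus strand, with the seed, bases 2 to 8, in capitals; the probe set is named for the precursor gene, and the mature form was not measured separately.
rno-miR-29c-3p: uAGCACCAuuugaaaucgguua

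The Mir29c probe set stood at 6.08, 6.04, 6.55 and 6.30 in high-fat/chow and at 6.09, 5.91, 5.65 and 5.65 in high-fat/high-fat females, with female 1 of the latter inside the range of the former. The own-diet difference was -0.41 in the high-fat lineage (SE 0.12, limma adjusted p = 0.432) and 0.03 in the chow lineage, and the interaction was -0.44 (SE 0.17, limma adjusted p = 0.694). None passed. Mir29b2 lay below the filter on low values.

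Slow-fibre markers had a lower mean in the high-fat lineage in 8 of 8 cases, with a median of -0.55. The median was -1.01 on own chow, with 8 of 8 lower, and -0.03 on the own high-fat diet, with 4 of 8 lower. Their score ran from -1.36 to 0.92 over the animals. Their relation to the matrix genes was not tested.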
